A study of Homo sapiens with 12 samples.

Results

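Enrichment of N6-methyladenosine (m6A) by immunoprecipitation (IP) over input was described in NOMO-1 cells, an established human acute monocytic leukaemia line, from every window listed in the 4 tables that the authors deposited. There were 79372 and 71406 windows for replicates 1 and 2 of guide sgMETTL16-1, and 75788 and 70002 for replicates 1 and 2 of guide sgMETTL16-2. That is 296568 of the 296568 windows in the series, and values below follow this order. The cells carried lentiviral sgMETTL16-1 or sgMETTL16-2, guides for knockout of METTL16, or the control guide sgNS, and all were kept in 2 ug/ml puromycin without other treatment. For each of the 3 guides there were 2 input and 2 IP libraries of poly(A) RNA, 12 in all. All 12 libraries come from 1 cell line, and the labels do not say whether replicate numbers stand for separate cultures or whether the knockout cells are clones. Each table compares a knockout guide with sgNS, and the fold enrichment used here is that of IP over input, whatever the knockout difference. Which libraries entered a fold is not given in the sources used here, so the 4 tables may share sgNS libraries and are not 4 independent measurements.

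In messenger RNA, m6A is placed mainly by a complex of METTL3, METTL14 and partner proteins at a short consensus around the adenosine, read by YTH domain proteins and removed by ALKBH5 and FTO. It is known to lie most often in long exons, around stop codons and in 3′ untranslated regions, and splice junctions are known to limit it in nearby short exons. METTL16 is a separate methyltransferase with few known targets, among them MAT2A messenger RNA and the U6 small nuclear RNA. An antibody to m6A also binds the related mark m6Am, which sits on an adenosine next to the cap of many messenger RNAs.

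Because of m6Am, the base at the annotated start matters for enrichment at the 5′ end. It is shown for the 5 genes with the highest enrichment among windows that come within 30 bases of their start. Each run gives 15 bases before the start and 15 from it on, in lower case with the start base in capitals, from the RefSeq promoter table for GRCh38.p14.
ITPKC (chr19:40717097-40717126, plus strand): ggggccgggtcggccGaagcccgaaccgaa
NORAD (chr20:36050946-36050975, minus strand): gagaactgccaagtcAgttccggtccggca
FAM43A (chr3:194685868-194685897, plus strand): ttcctcccggacggcAaggatgtgaggcag
NMT2 (chr10:15168679-15168708, minus strand): gctccgactccaagcAgtacggcgggaggc
CHMP1B (chr18:11851398-11851427, plus strand): aacaggaagtgggacCaaaacaaaggagcg
The start base was A in 3 of the 5. ITPKC (inositol-trisphosphate 3-kinase C) starts with G and CHMP1B (a subunit of the membrane-remodelling ESCRT-III complex) with C.

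In the authors' deposited tables the start window of the long non-coding RNA NORAD, which binds Pumilio proteins, had folds of 2.47, 5.92, 2.90 and 2.97. The start window of ITPKC had folds of 5.94, 3.66, 5.57 and 2.61, and that of NMT2, an N-myristoyltransferase, 2.33, 5.07, 2.28 and 4.54 in the authors' deposited tables. The start window of CHMP1B had folds of 11.9, 5.92, 2.10 and 2.51 in the authors' deposited tables. The ITPKC and NMT2 values rest on weak support, with deposited false discovery rates (FDR) between 0.00603 and 0.0355 for ITPKC and between 0.000513 and 0.0417 for NMT2 in the authors' deposited tables.

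An adenosine start was more frequent with enrichment at the start than without it in each table, by little in 3 of the 4, and nearly equal over genes seen in all 4. Of genes whose enriched window came within 30 bases of the start, 58.4%, 53.2%, 55.5% and 53.8% had A there (n = 137, 250, 227 and 288). Of genes with a listed start window that was not enriched, the shares were 49.2%, 51.4%, 53.7% and 51.0%. Over all 22114 promoters of the RefSeq table the share was 44.3%. Among genes with a start window in all 4 tables, 32 of 54 (59.3%) with enrichment in each and 73 of 126 (57.9%) with enrichment in none began with A. The motif GGAC, searched on the sense strand alone in the first 50 bases of the transcript, was in 18.7% of all promoters. It was in 21.2% to 24.8% of genes with an enriched start window and in 19.2% to 21.9% of those with one that was not. In the all-table groups the order turned, with 13.0% against 19.0%. These are counts of letters in a fixed window and not of methylated sites.

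A window is called enriched here when the deposited FDR of IP over input is under 0.05 and the fold is above 1. In the authors' deposited tables, the FDR was passed by 6426, 8489, 7762 and 8586 windows, or 8.1%, 11.9%, 10.2% and 12.3% of those listed. They lay on 4626, 5339, 5210 and 5351 genes, which is 30.4%, 35.9%, 34.5% and 35.8% of the genes listed. The median fold of an enriched window was 1.78, 1.92, 1.88 and 1.89 in the authors' deposited tables, and the largest was 17.1, 18.6, 19.0 and 22.3. Every listed window had a fold of at least 1.01, so the authors' deposited tables hold no window at or under its input. A gene without windows may be silent or unmethylated, and with bulk RNA fewer cells with the mark and fewer marked molecules per cell cannot be told apart.

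A high fold alone did not mark enrichment. Windows with a fold of at least 2 that did not pass the FDR numbered 27841, 26251, 28232 and 24874 in the authors' deposited tables, against 2077, 3801, 3194 and 3650 that passed. The windows that did not pass were short, with a median of 120 or 121 bases, against 417.5, 388, 390 and 388 bases for enriched windows. Read counts are not in the authors' deposited tables, so the depth is unknown. A standard error of the log2 fold was instead derived from the deposited p-value by a normal approximation. It covers counting error only and was added after seeing the data. Its median was between 0.197 and 0.210 (log2) for enriched windows and between 0.796 and 0.903 for the others. The 95% limits given with a fold come from this standard error.

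The cell type was checked by which markers were listed. Of 10 monocytic markers 9 were listed in all 4 of the authors' deposited tables, and the myeloid genes CD33, SPI1, CEBPA and CD68 had an enriched window in each. MPO, CSF1R, ITGAM and CD14 had none, and MPO and CD14 were barely measured, with standard errors of at least 2.05 and 2.83 (log2). Of 4 T cell markers 1 (CD2) was listed in all 4 tables, and of 4 fibroblast markers 1 (COL1A1). The erythroid and epithelial markers gave 0 of 4 each. No marker of these other lineages had a standard error under 0.361 (log2, CD2), and their part in the results was not tested.

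Of 13639 genes listed in all 4 tables, 3174 had an enriched window in every one, 23.3%. A further 1145 had one in 3 tables, 1368 in 2, 1544 in 1 and 6408 in none. The level of a gene is the highest fold among its enriched windows in a table, and its level over the tables is the lowest of the 4. Over the 3174 genes that level had a median of 1.74 and ran from 1.11 to 5.35. It reached 2 in 750 genes and 3 in 15, and it was under 1.5 in 758. Within a gene, the highest of the 4 levels was 1.34 times the lowest at the median, and 2.94 times at the 95th percentile.

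The same stretch of RNA was enriched for most of these genes. Of the 6426 enriched windows in replicate 1 of sgMETTL16-1, 2983 could be matched to a window in each other table that shared at least 50% of the bases of both. Of these, 2327 windows on 2028 genes were enriched in all 4. Their highest fold was 1.28 times the lowest at the median and 2.32 times at the 95th percentile. Their median folds were 1.79, 1.98, 1.94 and 1.95 in the authors' deposited tables, lowest in replicate 1 of sgMETTL16-1.

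Whether a gene was called in all 4 tables moved with its implied standard error, which comes from the same deposited p-value as the call. Each gene was placed by the best-measured window in each table and the widest of the 4 standard errors. With an error of at most 0.05 (log2), 68 of 69 genes (98.6%) were enriched in all 4 tables and 0 in none. Between 0.1 and 0.15 it was 630 of 879 (71.7%), between 0.2 and 0.3 it was 1043 of 2145 (48.6%), and between 0.5 and 1 it was 50 of 2747 (1.82%). The median fold of the best-measured window went the other way, from 1.34 in the best-measured genes to 3.14 in those with an error over 1. A listed window has a fold above 1 by construction, and with a small error even a small excess passes the FDR. The error also grows with the fold at a given p-value, so both trends are in part built in.

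**Figure D1:**
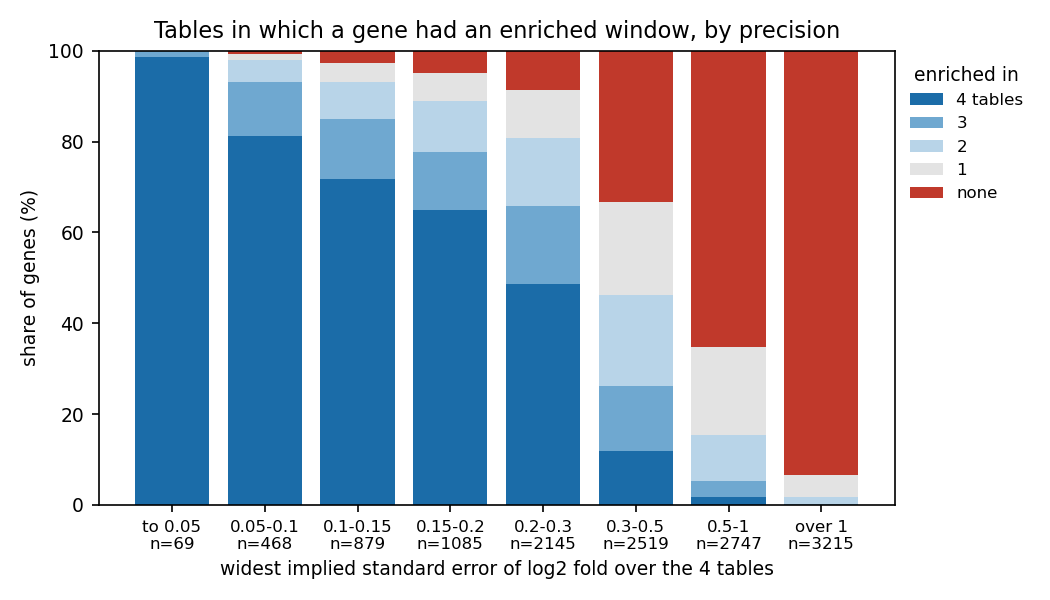
Share of genes (%) with an enriched window in 4, 3, 2, 1 or none of the 4 tables, by the widest implied standard error of the log2 fold over the tables, with the number of genes under each bar. The share in all 4 falls from 98.6% in the best-measured class to 0 in the class with an error over 1. The error is computed from the deposited fold and p-value, so it is not independent of the calls.

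The 20 genes with the highest level over the tables were led by ZNF407, a zinc finger gene on chromosome 18 (GRCh38, plus strand). Its folds of 7.05, 5.35, 6.84 and 7.44 in the authors' deposited tables came from 1 uninterrupted stretch, 75063243 to 75064802 at its widest, which ends 869 to 1199 bases before the annotated 3′ end of the gene. The 4 values were close, but their 95% limits ran from 1.93 to 21.6 and the FDR was between 0.00145 and 0.0155 in the authors' deposited tables. LRRC37B followed, with 4.64, 10.1, 5.32 and 4.54 in the authors' deposited tables, and its highest value came from another window than the rest. FJX1, a gene of the four-jointed family, had 4.27, 6.48, 8.36 and 5.23 in the authors' deposited tables. Its windows have different bounds, but all 4 hold 35619381 to 35619560 of chromosome 11 (plus strand).

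ANXA2R, an annexin A2 receptor gene, had the smallest FDR of the 20 in its least significant table, although that of UQCRHL was smaller in 3 of the 4. Its folds were 5.94, 4.23, 6.84 and 4.65 in the authors' deposited tables, with FDR values of 3.16e-14, 2.51e-12, 2.51e-13 and 1.26e-16. The windows lie on chromosome 5, minus strand, 43039227 to 43040227 at their widest, and run 56 to 144 bases past the annotated 3′ end. Their lower 95% limits were 3.91, 2.92, 4.26 and 3.32, so all 4 lay above the level of most genes.

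In 4 of the 20 genes, 1 table lay far from the other 3. TMEM229B, a membrane protein gene, had 13.7 in replicate 1 of sgMETTL16-2 and 3.96, 3.24 and 2.96 elsewhere in the authors' deposited tables. The GATA cofactor gene ZFPM1 had 11.4 there against 3.61, 3.59 and 3.86, and NDOR1, a flavoprotein reductase gene, 11.4 against 3.16, 3.24 and 2.96 in the authors' deposited tables. The 11.4 of ZFPM1 came from another stretch, a window of 6 blocks from 88453606 to 88528178 on chromosome 16. Its other 3 values came from windows between 88534245 and 88535166. The guanosine monophosphate reductase gene GMPR had 7.42, 7.61 and 11.4 but 3.31 in replicate 2 of sgMETTL16-2, all in windows that reach its 3′ end in the authors' deposited tables. The upper limits of the 3 single high values were 62.0, 52.5 and 48.0. These 4 genes were singled out with their values in view.

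The other genes of the 20 were ARHGAP23, GFOD2, BLOC1S3, LRFN1, LOC642852, FAM43A, KCNQ5, LINC00963, PATZ1, F8A1, GRIN2D and UQCRHL. BLOC1S3 encodes a subunit of a lysosome-related organelle complex, KCNQ5 a potassium channel, PATZ1 a zinc finger repressor and GRIN2D a glutamate receptor subunit. F8A1 had 2.97, 4.23, 3.80 and 4.96 in the authors' deposited tables. Its windows are also listed for the copies F8A2 and F8A3 and overlap MIR1184 hairpins on the other strand, so its reads cannot be given to 1 copy. UQCRHL, a single-exon retrocopy of the complex III gene UQCRH, had 3.71, 3.38, 6.08 and 2.94 in the authors' deposited tables, and its reads may come from either copy. LINC00963 was the only gene of the 20 named as a long intergenic RNA, with 3.34, 3.02, 3.80 and 4.96 in the authors' deposited tables.

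**Figure D2:**
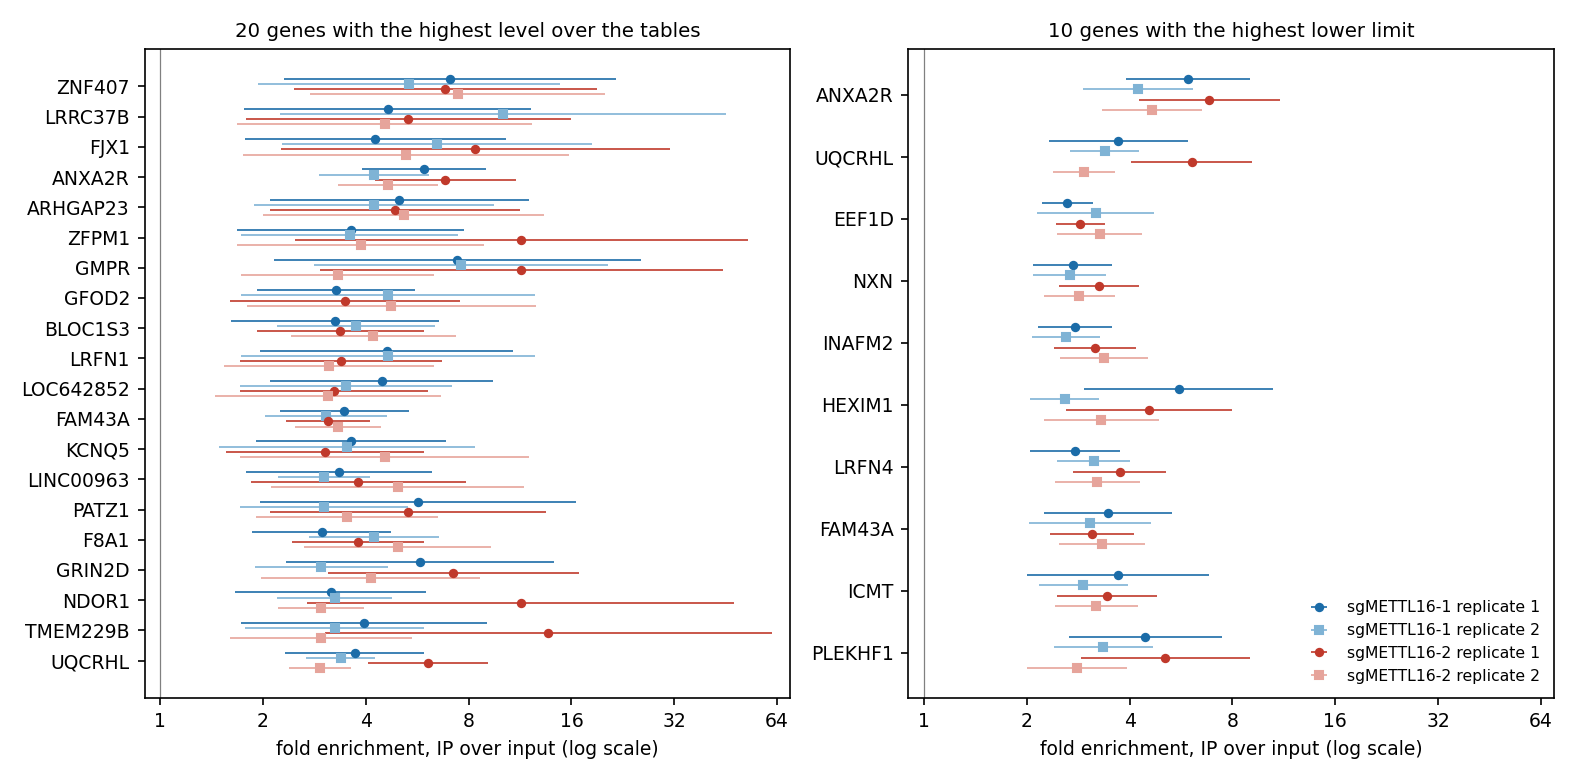
Fold enrichment of IP over input (log scale) in each of the 4 tables for the 20 genes with the highest level and the 10 with the highest lower limit. Points are deposited folds and bars the 95% limits implied by the deposited p-value, which reach 62.0 for TMEM229B and are narrower for ANXA2R, at 2.92 to 11.0.

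Ranked by the lower limit, an order added after seeing the data, the leading 10 genes were ANXA2R, UQCRHL, EEF1D, NXN, INAFM2, HEXIM1, LRFN4, FAM43A, ICMT and PLEKHF1. Only ANXA2R, UQCRHL and FAM43A were among the 20 as well. EEF1D, which encodes an exchange factor subunit of translation elongation, had 2.63, 3.18, 2.87 and 3.27 in the authors' deposited tables, with FDR values from 3.16e-33 to 4.68e-07. NXN, nucleoredoxin, had 2.73, 2.67, 3.25 and 2.85 in the authors' deposited tables, in windows that end 1170 bases before the 3′ end of the gene in each. In every table these 2 genes stayed within a narrow range.

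INAFM2, a small membrane protein gene, had 2.77, 2.60, 3.17 and 3.36 in the authors' deposited tables. LRFN4, a leucine-rich adhesion protein gene, had 2.76, 3.14, 3.74 and 3.22 in the authors' deposited tables. ICMT, which methylates prenylated proteins, had 3.71, 2.93, 3.44 and 3.20 in the authors' deposited tables. HEXIM1 and PLEKHF1 varied more. HEXIM1, the inhibitor of the elongation kinase P-TEFb, had 5.57, 2.59, 4.56 and 3.31, with both replicate 1 values above both of replicate 2 in the authors' deposited tables. PLEKHF1, an endosomal phosphoinositide-binding protein gene, had 4.45, 3.35, 5.09 and 2.80 in the same pattern in the authors' deposited tables. In all, 713 genes had a lower limit of at least 1.5 in every table.

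The best supported genes were others again: abundant messenger RNAs with moderate folds. By the weakest of their 4 deposited p-values, the first 10 were P4HB, CALR, RPL37A, RPL28, RPL36, RPS19, IRF2BP2, EEF2, PTMA and FTL. P4HB, a protein disulfide isomerase of the endoplasmic reticulum, had 1.55, 1.84, 1.77 and 1.80 in the authors' deposited tables. Its window on chromosome 17, minus strand, 81843368 to 81845648 at its widest, ends 202 to 352 bases before the 3′ end, and its limits in replicate 1 of sgMETTL16-1 were 1.50 to 1.60. The chaperone calreticulin, CALR, had 1.60, 1.87, 1.80 and 1.81 in the authors' deposited tables. For both, replicate 1 of sgMETTL16-1 gave the lowest value, with limits that do not reach those of the other tables.

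Ribosomal protein genes made up 4 of these 10. RPL37A had 1.51, 1.52, 1.50 and 1.57, the closest agreement among the 4, in the authors' deposited tables. RPS19 had 1.32, 1.31, 1.40 and 1.29, the lowest level of the 10, in the authors' deposited tables. The corepressor gene IRF2BP2 had the highest level of the 10, with 1.92, 2.09, 2.07 and 2.17 in the authors' deposited tables. EEF2, the translocase of elongation, had 1.41, 1.61, 1.50 and 1.58 in windows that end at its 3′ end in the authors' deposited tables. The ferritin light chain gene FTL had 1.60, 1.52, 1.69 and 1.53, also up to the 3′ end, in the authors' deposited tables.

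Genes without enrichment were first taken from the 8232 genes with at least 3 windows in every table, since a window needs reads. Of these, 3363 (40.9%) had no enriched window in any table. The 15 with the most windows were long transcripts, led by the antisense RNA KCNQ1OT1 with 74 to 102 windows a table. The titin gene TTN had 51 to 71 windows, the cytoskeletal linker gene DST 32 to 39, and the transcription factor genes MGA 22 to 26 and NFAT5 20 to 31. Their best-measured windows had standard errors between 0.311 and 1.88 (log2), and single windows reached folds of 10.6 in DST and 10.7 in MGA in the authors' deposited tables without passing the FDR. At this precision an absence of m6A cannot be told from too few reads.

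Where the implied error was small, few genes lacked enrichment. A small error goes with a small p-value at a given fold, so this is in part built in. Of the genes with an error of at most 0.15 in all 4 tables, 27 had no enriched window in any. This class was set after seeing the data and takes genes with any number of windows, down to 1 in a table for CYC1 and LAMP1. With errors up to 0.05 it was 0 of 69, from there to 0.1 it was 3 of 468 (0.641%). Between 0.1 and 0.15 it was 24 of 879 (2.73%). Over all genes listed in all 4 tables it was 6408 of 13639 (47.0%). CYC1, cytochrome c1 of complex III, was the best measured of the 27, with 1.11, 1.15, 1.15 and 1.14 in the authors' deposited tables and no upper limit above 1.28. The lysosomal membrane protein gene LAMP1 had 1.09, 1.06, 1.12 and 1.05, and the pyruvate dehydrogenase gene PDHA1 1.10, 1.09, 1.15 and 1.10, in their best-measured windows in the authors' deposited tables. HK1, the first enzyme of glycolysis, had 1.14, 1.09, 1.18 and 1.11 in the authors' deposited tables. These are windows that the authors' deposited tables list, so parts of these genes at or under their input are not seen.

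The other 11 of the 15 best-measured genes without enrichment were ACTR3, PSMC5, HADHB, RRM2, PSMB1, ETFB, ITGB1, PTPRC, HEXA, RPSA and CDC5L. HADHB and ETFB serve fatty acid oxidation, PSMC5 and PSMB1 are proteasome subunits, and RRM2 is a subunit of ribonucleotide reductase. ITGB1 encodes the integrin beta chain, and its best-measured window had 1.17, 1.18, 1.21 and 1.18 in the authors' deposited tables. RPSA, the ribosomal protein and laminin receptor gene, came closest to the threshold, with 1.28 and an FDR of 0.055 in replicate 2 of sgMETTL16-2 in the authors' deposited tables. Over the 15 genes the best-measured folds ran from 1.03 to 1.28. Other windows of these genes reached 5.2 in ACTR3 and 6.76 in RPSA without passing the FDR in the authors' deposited tables.

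The genes that encode the m6A machinery were themselves mostly enriched. Of 21 of them listed in all 4 tables, 14 (66.7%) had an enriched window in each, beside 23.3% of all genes. In the 14 of the 21 that were well measured, with an error of at most 0.3, it was 13 (92.9%), beside 2826 of 4646 (60.8%) of all genes so measured. The median best-measured fold in those groups was 1.62 and 1.50. The catalytic writer METTL3 had levels of 1.84, 1.61, 2.18 and 2.03 in the authors' deposited tables. Its partner METTL14 had 1.86, 2.06 and 2.30 and no enriched window in replicate 2 of sgMETTL16-1 in the authors' deposited tables. The gene targeted here, METTL16, had 2.06, 2.84 and 2.07 and none in replicate 1 of sgMETTL16-1 in the authors' deposited tables. These folds compare IP with input and do not check the knockout.

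Other writer subunits were enriched in every table. In the authors' deposited tables the level of WTAP ran from 1.90 to 4.13, that of VIRMA (listed as KIAA1429) from 1.60 to 2.36 and that of ZC3H13 from 1.85 to 2.29. The level of RBM15 ran from 2.14 to 2.52, that of RBM15B from 1.64 to 2.54 and that of CBLL1 from 1.81 to 2.45 in the authors' deposited tables. The cytosolic readers were alike, with YTHDF1 at 2.09 to 2.78, YTHDF2 at 2.06 to 2.44 and YTHDF3 at 2.06 to 2.51 in the authors' deposited tables. Of all 3 the ranges overlap. The nuclear reader YTHDC1 was at 1.68 to 2.78, while the helicase-containing YTHDC2 had no enriched window in the authors' deposited tables. YTHDC2 was measured less well, with a widest error of 0.770 (log2) against 0.157 for YTHDC1. The best-measured folds of YTHDC2 were 1.14, 3.38, 1.35 and 1.32 in the authors' deposited tables.

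The erasers differed in their calls. ALKBH5 had levels of 1.49, 1.49, 1.86 and 1.96 in the authors' deposited tables. FTO had no enriched window, and its best-measured windows were at 1.37, 1.30, 1.18 and 1.17 with a widest error of 0.30 (log2) in the authors' deposited tables. The ribosomal RNA methyltransferase genes METTL5 and ZCCHC4 had no enriched window. METTL5 was listed in 2 tables, and ZCCHC4 had a widest error of 0.876 (log2). Of the IGF2BP readers, IGF2BP3 was enriched in both replicate 2 tables (2.30 and 2.22), IGF2BP2 in none, and IGF2BP1 was listed in 3 tables with at most 1 window in the authors' deposited tables. The RNA-binding proteins HNRNPA2B1 (1.18 to 1.50) and HNRNPC (1.38 to 1.52) were enriched in all of the authors' deposited tables at lower levels.

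Among myeloid and AML genes 15 of 21 were enriched in all 4 tables (71.4%), beside 23.3% of all genes, and their errors were smaller, with a median of 0.149 (log2) against 0.445. Their median best-measured fold was 1.67 beside 1.77 over all genes. Among genes with an error of at most 0.3 the order of the medians turned, with 1.65 beside 1.50, and 15 of 17 (88.2%) beside 60.8% were enriched in all 4. The granulocytic transcription factor gene CEBPA had 2.02, 2.39, 2.35 and 2.48, and the retinoic acid receptor gene RARA 2.17, 2.15, 2.23 and 2.22 in the authors' deposited tables. By level RARA was the steadier of the pair. Its best-measured windows were less steady, at 1.24, 2.14, 1.22 and 2.18, while those of CEBPA had the folds given above. The granule enzyme gene MPO and the transcription factor gene SP2 were listed without enrichment. Immediate early genes were enriched in all 4 tables in 7 of 19 cases (36.8%, beside 23.3% of all genes). With an error of at most 0.3 it was 6 of 6, beside 60.8%, at a median fold of 2.14 beside 1.50. In that group IER2 had 2.76, 2.64, 2.36 and 3.02 and the AP-1 gene FOSL2 2.52, 2.78, 2.33 and 3.42 in the authors' deposited tables. EGR2 and FOSB had none, with errors up to 2.05 and 1.22 (log2).

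Proteasome subunit genes were enriched least often among well-measured lists. Of 35 genes listed in all 4 tables, enrichment in each was found for 4 (11.4%), and of the 21 with an error of at most 0.3 it was 3 (14.3%), beside 60.8% of all genes so measured. Their median best-measured fold was 1.24, beside 1.50. The exceptions included PSMD5, an assembly chaperone, with 2.11, 2.17, 1.99 and 2.14, and PSMD4, the ubiquitin receptor, with 1.71, 3.38, 1.73 and 2.07 in the authors' deposited tables. These levels were steady over the tables for PSMD5 and not for PSMD4. The best-measured windows of PSMD4 were steady and lower, at 1.33, 1.30, 1.27 and 1.26. Its widest error was 0.0753 (log2), against 0.353 for PSMD5.

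Cytosolic ribosomal protein and complex I genes passed the FDR more often than the 23.3% of all genes, at low folds, and were better measured. Of 64 ribosomal protein genes 37 (57.8%) were enriched in all 4 tables, with a median level of 1.34 and none at a level of 2. Their median error was 0.121 (log2). In complex I it was 12 of 32 (37.5%), with a median level of 1.34, none at 2 and a median error of 0.212 (log2). Among genes with an error of at most 0.3 it was 35 of 45 (77.8%) for ribosomal protein genes but 11 of 21 (52.4%) for complex I, on either side of the 60.8% of all genes so measured. The leading complex I gene NDUFV3 had 1.86, 1.71, 1.58 and 1.81, while the core subunit gene NDUFS1 was at 1.21, 1.14, 1.19 and 1.17 without enrichment in the authors' deposited tables. Mitochondrial ribosomal protein genes reached higher levels, with 35 of 71 (49.3%), a median of 1.64 and 6 at a level of 2 or more. Their median error was 0.242 (log2). Of those with an error of at most 0.3, 30 of 48 (62.5%) were enriched in all 4 tables, near the 60.8% of all genes. MRPL27 had 2.12, 2.49, 2.60 and 2.57 in the authors' deposited tables. Of 11 housekeeping genes 6 (54.5%, beside 23.3% of all genes) were enriched in all 4, at a median level of 1.31. Their median error was 0.0938 (log2), and with an error of at most 0.3 it was 6 of 7 (85.7%, beside 60.8%). TUBA1B, an alpha tubulin, had 1.70, 1.40, 1.96 and 1.82 in the authors' deposited tables.

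Zinc finger families had higher folds than most lists, and ZNF genes were poorly measured. Of 360 ZNF genes 59 (16.4%) were enriched in all 4 tables, below the 23.3% of all genes, and their median error was 0.623 (log2). Among the 53 with an error of at most 0.3 it was 44 (83.0%), beside 60.8% of all genes so measured. Their median best-measured fold was 1.85, beside 1.50. Of 34 ZBTB genes 10 (29.4%) were enriched in all 4 tables, beside 23.3%, and of the 9 well-measured ones 7 (77.8%), beside 60.8%. The median fold of those 9 was 2.10. The median error over all 34 was 0.437 (log2), near the 0.445 of all genes. ZBTB7A had 2.47, 2.44, 3.09 and 2.36 and ZBTB18 2.41, 6.76, 2.74 and 4.96 in the authors' deposited tables. Both are transcriptional repressors, and the level of ZBTB18 varied more between tables. The best-measured windows of ZBTB18 were at 2.41, 2.28, 2.74 and 1.63.

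Lysine methylation enzymes were enriched in all 4 tables in 15 of 33 cases (45.5%), beside 23.3% of all genes, and their median error of 0.265 (log2) was smaller than the 0.445 of all genes. The histone methyltransferase genes KMT2B (2.75, 3.44, 2.96 and 3.62) and KMT2D (2.82, 3.52, 2.33 and 2.64) led them in the authors' deposited tables. Among forkhead genes it was 7 of 26 (26.9%), near the share of all genes, led by FOXK1 with 2.56, 3.80, 2.75 and 3.37 in the authors' deposited tables. For SOX and HOX genes it was 7 of 25 (28.0%), also near it, and HOXA13 had 1.97, 2.16, 2.01 and 2.11 in the authors' deposited tables. The deubiquitinase USP10, of 43 USP genes with 14 (32.6%), had 2.83, 2.94, 2.86 and 2.86 in the authors' deposited tables. Of 50 helicase genes (DDX and DHX) 24 (48.0%) were enriched in all 4, and of 37 RBM genes, some of them m6A machinery, 18 (48.6%). SLC transporter genes lay at 46 of 205 (22.4%), near the 23.3% of all genes. Among genes with an error of at most 0.3, the shares were 44 of 55 (80.0%) for SLC, 13 of 18 (72.2%) for lysine methylation, 14 of 19 (73.7%) for USP, 22 of 30 (73.3%) for helicase and 17 of 22 (77.3%) for RBM genes, beside 60.8%.

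**Figure D3:**
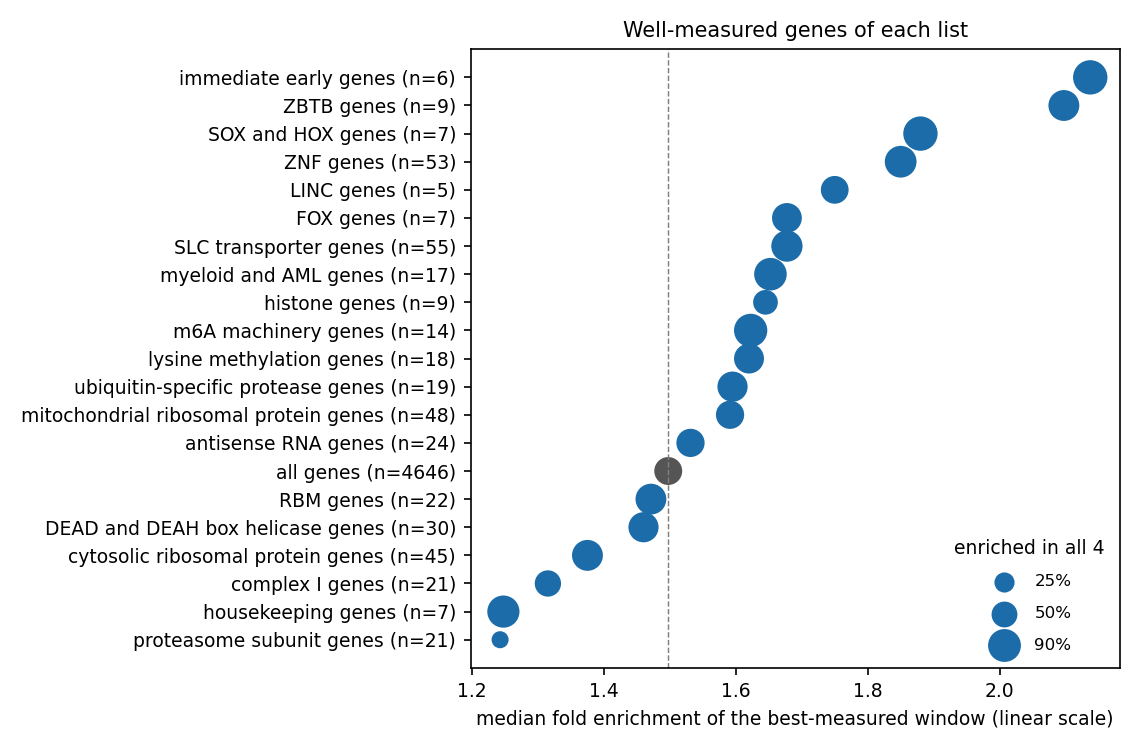
Median fold of the best-measured window (linear scale from 1.2) over the genes of each list with an implied standard error of at most 0.3 in all 4 tables, for lists with at least 5 such genes. The dot area grows with the share enriched in all 4 tables, the dashed line marks the 1.50 of all 4646 such genes, and proteasome subunit genes lie lowest at 1.24.

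Non-coding RNAs were called rarely and measured poorly. Of 819 long non-coding RNA genes 46 (5.62%) were enriched in all 4 tables, beside 3086 of 12118 protein-coding genes (25.5%), with median errors of 1.42 and 0.398 (log2). Among those with an error of at most 0.3 it was 37 of 55 (67.3%) and 2759 of 4542 (60.7%), with a median fold of 1.50 in both. LINC genes gave 6 of 155 (3.87%) and antisense RNA genes 19 of 376 (5.05%). Histone genes, most of whose RNAs lack a poly(A) tail, gave 4 of 35 (11.4%, beside 23.3%). With an error of at most 0.3 it was 4 of 9 (44.4%, beside 60.8%). They were led by H2AFX with 2.08, 2.60, 2.04 and 2.80 and H1F0 with 2.43, 2.41, 1.79 and 1.81 in the authors' deposited tables. Of 13 snoRNA host genes 1 was enriched in all 4 tables (7.69%, beside 23.3% of all genes). It was SNHG8, with 3.24 and 3.57 for replicate 1 of the guides and 1.46 and 1.48 for replicate 2 in the authors' deposited tables. Of the 6 SOCS genes listed, 4 were enriched in no table and 1 in all 4 (16.7%, beside 23.3% of all genes). That 1 was SOCS5, with 2.73, 2.70, 2.51 and 2.24 in the authors' deposited tables. No mitochondrially encoded gene was listed.

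Genes without a window across a splice junction stood higher, a class chosen after seeing the data. In 343 genes no listed window spanned a junction and the windows covered at least 0.5 of the gene. Of these, 89 (25.9%) were enriched in all 4 tables, beside 3054 of 12909 others (23.7%), and the median best-measured fold was 2.40 against 1.74. The gap in the share was wider among well-measured genes. With errors of 0.15 to 0.3 it was 53 of 58 (91.4%, median fold 2.19) against 1677 of 3144 (53.3%, 1.56), and with errors up to 0.15 it was 16 of 18 (88.9%, 1.98) against 1057 of 1391 (76.0%, 1.38). With errors of 0.3 to 0.5 it was 15 of 47 (31.9%, 1.98) against 278 of 2439 (11.4%, 1.59), and with errors of 0.5 to 1 it was 5 of 80 (6.25%, 2.26) against 42 of 2603 (1.61%, 1.78). In both of these classes the folds lay closer together than over all genes. FJX1, FAM43A and UQCRHL of the 20 leading genes belong to it, as do INAFM2 and HEXIM1. Exons were not annotated here, so the class rests on the windows' blocks and not on gene models.

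**Figure D4:**
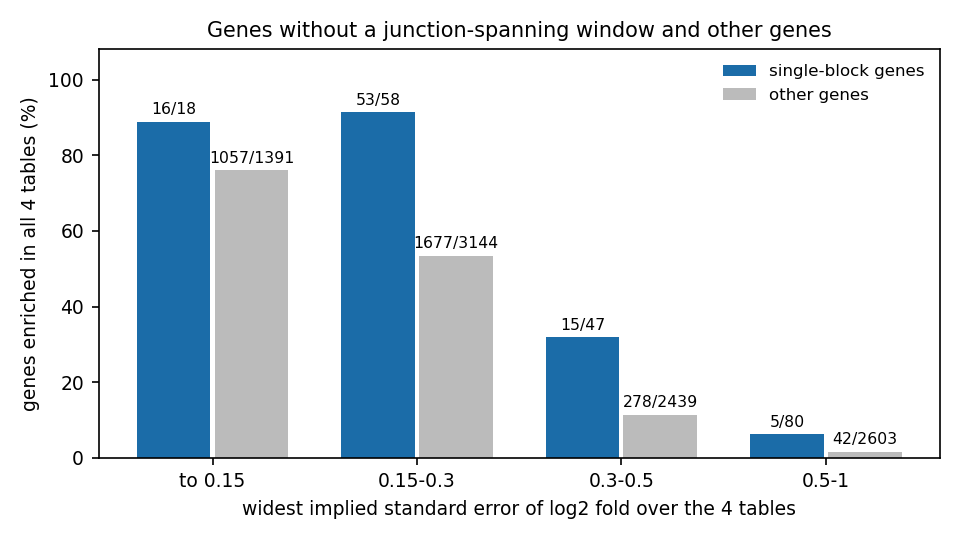
Share of genes (%) enriched in all 4 tables for genes with no window across a splice junction and for other genes, by the widest implied standard error of the log2 fold. Counts stand over the bars, and the largest gap is between errors of 0.15 and 0.3, with 53 of 58 against 1677 of 3144.

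Over all listed windows too, uninterrupted windows had higher folds at like length. For windows of 200 to 499 bases, the median fold was 2.06, 2.24, 2.28 and 2.12 with 1 block and 1.63, 1.74, 1.75 and 1.71 with several in the authors' deposited tables. They were nonetheless enriched less often, in 14.7%, 24.1%, 19.5% and 24.9% of cases against 19.5%, 26.9%, 25.2% and 28.1%. Their median errors were larger, 0.619, 0.607, 0.675 and 0.570 (log2) against 0.349, 0.394, 0.378 and 0.362, and the part of this in the folds was not tested. Length itself moved with the calls. Of windows with 1 block under 100 bases 0.12% to 0.26% were enriched, and of those of at least 1000 bases 85.9% to 92.3%. The part of length in other results was not tested.

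Enriched windows lay near the 3′ end of their gene more often than others. Within 1000 bases of the RefSeq end, measured along the genome with introns, lay 35.3%, 30.9%, 32.8% and 30.8% of enriched windows and 25.1%, 23.5%, 25.1% and 24.0% of the others. The windows that reach the end stood out most. Of these 24.0%, 28.9%, 27.4% and 30.5% were enriched, beside 5.51%, 8.84%, 7.61% and 9.26% of windows over 10000 bases away. Among windows with an error of at most 0.3 the shares were 63.9%, 74.9%, 72.3% and 75.6% at the end and 23.3%, 36.3%, 32.1% and 35.8% beyond 10000 bases. The median fold of those well-measured windows was 1.51, 1.62, 1.59 and 1.66 at the end and 1.30, 1.35, 1.33 and 1.34 far from it in the authors' deposited tables. In windows under 200 bases the difference between enriched and other windows was 12.9, 7.72, 6.46 and 4.77 percentage points, against 10.3, 7.39, 7.63 and 6.79 over all lengths.

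Windows at the 5′ end were enriched less often than those at the 3′ end. Of windows that reach the start 9.85%, 17.3%, 17.8% and 17.9% were enriched, with replicate 1 of sgMETTL16-1 apart from the rest. With an error of at most 0.3 it was 54.3%, 69.1%, 69.2% and 64.6%, beside 63.9%, 74.9%, 72.3% and 75.6% at the 3′ end. Their median folds were 1.48, 1.58, 1.62 and 1.58, beside 1.51, 1.62, 1.59 and 1.66, in the authors' deposited tables. Median errors of all windows reaching the start were 1.05, 0.807, 0.896 and 0.772 (log2), beside 0.515, 0.561, 0.536 and 0.531 at the 3′ end. The part of precision in the gap was not tested. Within 1000 bases of the start lay 14.3%, 15.9%, 17.1% and 17.2% of enriched windows and 11.0%, 13.5%, 11.8% and 14.0% of the others. In windows under 200 bases the difference shrank to between 0.162 and 2.39 percentage points. An enriched window came within 30 bases of the start in all 4 tables in 54 genes (median level 1.54). One reached the end in 356 (1.58), with 10 genes in both groups.

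**Figure D5:**
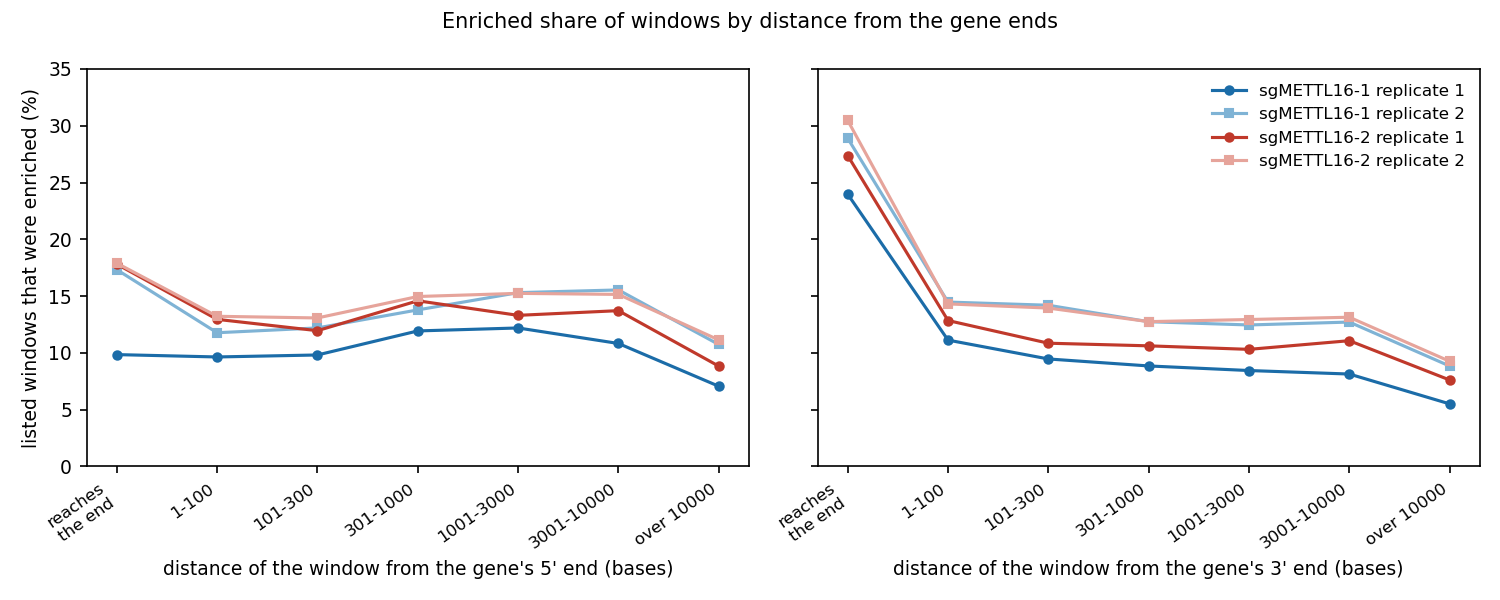
Share of listed windows that were enriched (%) by their distance along the genome from the 5′ end and the 3′ end of the gene (bases), with 1 line a table. The share is highest for windows that reach the 3′ end (24.0% to 30.5%), and replicate 1 of sgMETTL16-1 is the lowest line throughout.

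The leading genes with an enriched window at the 3′ end were GMPR, CLDN5, VENTX, HPS6 and P2RY11. The tight junction gene CLDN5 had 2.92, 2.79, 3.13 and 2.90 in the authors' deposited tables, in windows that stop at its annotated end (chromosome 22, minus strand, 19523024 to 19523765 at the widest). The homeobox gene VENTX, expressed in myeloid cells, had 2.77, 2.86, 3.04 and 3.31 in the authors' deposited tables. HPS6, a subunit of an organelle biogenesis complex, had 2.51, 2.88, 3.18 and 3.31 in the authors' deposited tables. The purinergic receptor gene P2RY11 had 2.47, 2.52, 3.99 and 2.92 in the authors' deposited tables. CLDN5 was the steadiest of the 5, and GMPR the least steady.

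A pair of microRNA hairpins lay inside longer host gene windows enriched in all 4 tables, but the rows of the hairpins themselves were not. Of 1560 hairpins in the RefSeq table, 124 lay inside a listed window and 14 inside an enriched one, counted over the 4 tables together. Of all listed windows 8.1% to 12.3% were enriched in a single table, so these counts do not set hairpins apart. MIR671 lies in CHPF2, a chondroitin-polymerizing factor gene, whose window around it had 2.08, 2.82, 2.12 and 2.56 in the authors' deposited tables. Its own row, the hairpin alone, is in both replicate 1 tables, at 1.24 and 1.23 with an FDR of 1.0 in the authors' deposited tables. MIR3652 lies in HSP90B1, the chaperone of the endoplasmic reticulum, whose window had 1.42, 2.54, 4.56 and 2.35 in the authors' deposited tables. The row of MIR3652 itself had 1.12, 1.40, 1.30 and 1.48, with FDR values of 0.999, 0.00186, 0.326 and 0.000204, enriched in 2 of the authors' deposited tables. The mature sequences are shown with the seed (bases 2 to 8) in capitals, from RefSeq on GRCh38.p14, to mark which stretch of the host RNA is meant, and no 2 of them share a seed.
hsa-miR-671-5p (chr7:151238449-151238471, plus strand): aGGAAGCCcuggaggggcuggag
hsa-miR-671-3p (chr7:151238488-151238508, plus strand): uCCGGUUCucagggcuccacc
hsa-miR-3652 (chr12:103930425-103930442, plus strand): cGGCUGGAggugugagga
The windows are read from long poly(A) RNA of the host gene, and no value of the mature microRNAs was used here.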

How the data were processed

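Input and m6A IP libraries were made from poly(A) RNA. Per the submitters' processing notes, reads were aligned with STAR to GRCh38. The sources used here do not name the peak caller, the annotation or the libraries behind each fold. The number of a table was read as its replicate number. Per the file headers, the authors deposited 4 tables whose rows are windows with blocks, the fold of IP over input (a linear ratio) and log10 p and FDR values, recorded here as a score because the smallest run far below zero. The deposited log2 fold change of the knockout difference was not used. Library depth is unknown.

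Computed here (Python 3.11.15, pandas 2.3.3, numpy 2.4.6, scipy 1.17.1, matplotlib 3.10.9) were counts, medians and shares of enriched windows, and no test was run beyond the deposited p and FDR. The implied standard error is log2 of the fold divided by the normal quantile of the deposited one-sided p, and it has no value for p of at least 0.5. It overstates precision at few reads, and 95% limits cover counting error only. It comes from the same p-value as the calls, so shares by class of error are not independent of the calls. Genes were placed by the RefSeq table for GRCh38.p14 by symbol. Windows were matched by gene, strand and at least 50% of the bases of each. Deposited starts count from 0 and are given from 1. Steps were checked on simulated data.

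Named were the 20 genes with the highest level, the 10 with the strongest support, the 15 without enrichment with the most windows, up to 4 members of each of 23 lists (all of the m6A machinery), and 5 genes at each gene end. Of these, some are given by count alone. Members and lists were chosen with earlier results of these data known. Alternatives were an FDR of 0.01 or 0.1, a fold of at least 2, duplicate and overlapping rows left out, matched windows, other window minimums, 500 bases, windows under 200 bases, and either replicate number left out. The lower limit of 1.5, the error limits of 0.15 and 0.3 and the class without junction windows were added after seeing the data. Exons and motifs inside windows need a genome, which was not used here. A further marker list is not reported here.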

Additional observations from a re-analysis of the deposited data

How the results depend on the processing

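No paired analysis was possible because the tables hold no value per library. A minimum fold of 2 left 2077 and 3801 enriched windows for sgMETTL16-1, 3194 and 3650 for sgMETTL16-2, and 750 genes enriched in all 4 tables, all among the 3174. Requiring matched windows left 2028 genes, and a lower limit of at least 1.5, added after seeing the data, 713. Each replicate number alone (its 2 tables) gave 3958 to 4559 genes enriched in both. Genes enriched in no table numbered 6408 with at least 1 window, 1581 with at least 5, and 4597 to 5493 with 1 replicate number left out. With an error of at most 0.15 and any number of windows it was 27. Those counts fall or rise with the number of genes or tables asked for by construction.

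In windows under 200 bases the 3′ difference was 12.9, 6.46 and 4.77 percentage points for replicate 1 of sgMETTL16-1 and replicates 1 and 2 of sgMETTL16-2, and the 5′ difference 0.162, 1.07, 2.39 and 1.6 in the 4 tables. Within 500 bases the 5′ difference was 2.1 and 4.03 points for replicate 1 of the 2 guides. The cause was not tested. No position difference changed sign.

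Against all genes, the share enriched in all 4 tables reversed with a fold of at least 2 for cytosolic ribosomal protein genes (34.5 to -5.5 points), complex I (14.2 to -5.5), housekeeping (31.3 to -5.5), ZNF (-6.88 to 1.72), SOX and HOX (4.73 to -1.5) and SOCS genes (-6.6 to 11.2), and with an FDR under 0.01 for SLC genes (-0.832 to 2.16). The other 37 values for lists kept their direction. Unknown depth limits every value, and precision could be judged only from the deposited p-values.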
